A study of Mus musculus with 12 samples.

Results

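Collagen chains are the subunits from which the triple-helical collagens of the extracellular matrix are built, and their transcripts were followed in mouse choroid plexus from midgestation to adulthood. The chains were every row of the expression table whose gene symbol had the form Col, a type number, a and a chain number, without regard to their values. This gave 44 of 52459 gene symbols. They were set in 3 classes by the structure of their products. The fibrillar class held 11 chains, the basement membrane class held the 6 chains of type IV, and the remaining 27 chains of other types formed the third class.

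The choroid plexus is the folded epithelium with a vascular stroma that lies in the brain ventricles and secretes cerebrospinal fluid. Choroid plexus of B6 mice was collected at 4 ages, namely in midgestation (E12.5, in days of embryonic life), at birth (P0), on day 14 after birth (P14) and in adulthood at 6 months (A6m). Each age had 3 RNA-seq libraries, 12 in all. The labels name a strain and an age and no allele or treatment for these mice, and neither sex, ventricle nor batch, and the design text calls the specimens independent. The sums of 8 epithelial markers, in TPM from the lowest to the highest library, were 12659 to 23446 at E12.5, 148220.0 to 149941 at P0, 179360.0 to 194690.0 at P14, then 172090.0 to 178308 at A6m. Ttr, the transthyretin gene, made up most of the sum at every age. At E12.5 it was at 15444 ± 5032 TPM, and Kl, the klotho gene, at 1.28 ± 0.335 TPM. Otx2, Clic6 and Aqp1 averaged 463, 500 and 189 TPM at E12.5 and 401, 599 and 176 TPM at A6m. By the test described below, 7 of the 8 were higher at P0 than at E12.5, where 18.6% of all genes were. At A6m against E12.5 5 were higher and 0 lower, or 8 and 0 with the scaling described below. The shares of all genes were 15.2% and 62%, or 35.4% and 35.8% with that scaling.

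As background, fibrillar collagens of types I, III and V form the cables of connective tissue, while types II and XI do so in cartilage. Type IV chains assemble into the sheet-like network of basement membranes, on which epithelia and endothelia rest, and other types decorate fibrils, form microfilaments or short-chain networks, or span the plasma membrane. The epithelium of the choroid plexus stands on a basement membrane that faces a stroma with fenestrated capillaries. Collagen trimers are made of 1 or more kinds of chain, so the genes below are given with their partner chains where these are known.

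Values were TPM, transcript abundances adjusted for length and set to the same sum in each library. Calls came from limma on log2(TPM + 1), fitted to all 17422 genes with at least 1 TPM in at least 3 of the 12 libraries, with 0.05 as the limit for p after Benjamini-Hochberg adjustment over those genes, and each adjusted p below is from that test. In the text, rose and fell refer to chains that passed it. Of the 44 chains 34 entered the test, and 17 of these were at 1 TPM or more in all 12 libraries. The other 10 had a mean of at most 1.08 TPM at any age. Of the 34, Col11a2, Col22a1 and Col9a1 reached 1 TPM at E12.5 and at no other age, so they entered only through the age at which they were high. The 34 were read against the calls over all genes.

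The median gene differed between ages too, by a log2 difference of -0.27 for P0 against E12.5, -0.41 for P14 against P0, -0.04 for A6m against P14 and -0.71 for A6m against E12.5. Median-of-ratios scaling, called scaling below, brought these medians to -0.02, 0.00, -6.81e-05 and -0.01, and scaled values are given beside the calls of chains that scaling changed. Some libraries stood apart. In E12.5 replicate 1 the small-RNA feature Mir6236 took 9.31% of TPM. Xist, transcribed from an inactive X, had 155, 148 and 149 TPM in the A6m libraries, 139, 0.389 and 89.5 TPM in the E12.5 libraries and no more than 0.808 TPM in the others. Ddx3y, on the Y, had at most 0.366 TPM at A6m, 9.26, 54.4 and 50.9 TPM at E12.5 and at least 80.1 TPM in the others. E12.5 replicates 1 and 3 thus held both transcripts. Age and sex cannot be told apart between A6m and P14, nor wholly between E12.5 and either P0 or A6m. Without any 1 of the 12 libraries the counts over all chains stayed within 1.5 times their value.

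The make-up of the collagen transcripts differed between ages, and their sum was lower at P14 and A6m than before. In TPM, the sum over the 44 chains was 2207 ± 292 at E12.5, 1821 ± 40.3 at P0, 892 ± 72.9 at P14, then 662 ± 72.7 at A6m (mean ± SD, n = 3 libraries each). With scaling the sum was 1551 ± 113 at E12.5, 1567 ± 23.0 at P0, 1096 ± 50.05 at P14, then 843 ± 54.3 at A6m, and the E12.5 and P0 libraries overlapped. Shares within a library do not depend on the scaling. The fibrillar chains made up 51.4% ± 1.72 at E12.5, 17.1% ± 1.11 at P0, 12.8% ± 0.722 at P14, then 4.67% ± 0.686 at A6m. The type IV chains made up 16.2% ± 0.706 at E12.5, 14.5% ± 0.849 at P0, 13.1% ± 0.778 at P14, then 6.06% ± 0.145 at A6m. The other chains made up 32.4% ± 1.79 at E12.5, 68.4% ± 1.43 at P0, 74.1% ± 1.05 at P14, then 89.3% ± 0.598 at A6m. Fibrillar chains thus held the largest share at E12.5 and the smallest at A6m, and the other chains held the largest share from P0 on.

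**Figure D1:**
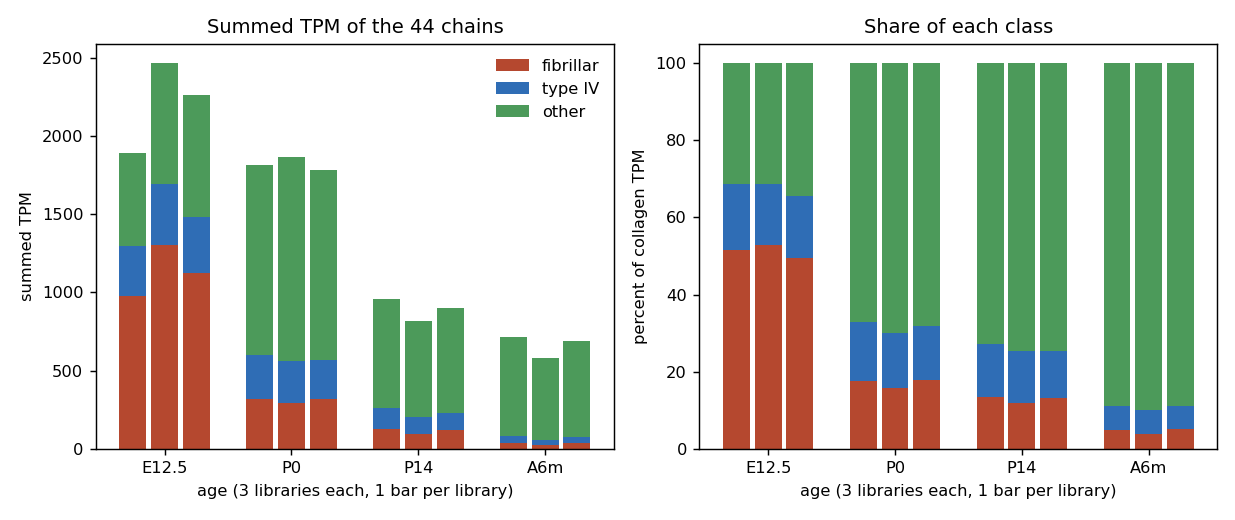
Summed TPM of the 44 collagen chains (left) and the percent of that sum in each class (right), 1 bar per library, with 3 libraries at each of 4 ages. The fibrillar share was 49.5% to 52.9% in the E12.5 libraries and 3.91% to 5.23% in the A6m libraries.

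A few chains carried most of the sum. At E12.5 Col3a1 alone held 22.3% of the mean collagen TPM, followed by Col1a2, Col18a1 and Col4a1. At P0 the leading chains were Col9a3 with 30.7%, Col8a1 with 12.6% and Col8a2 with 9.73%. The same 3 chains led at P14 and, with 83.3% between them, at A6m. None of the 3 is fibrillar or a type IV chain.

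**Figure D2:**
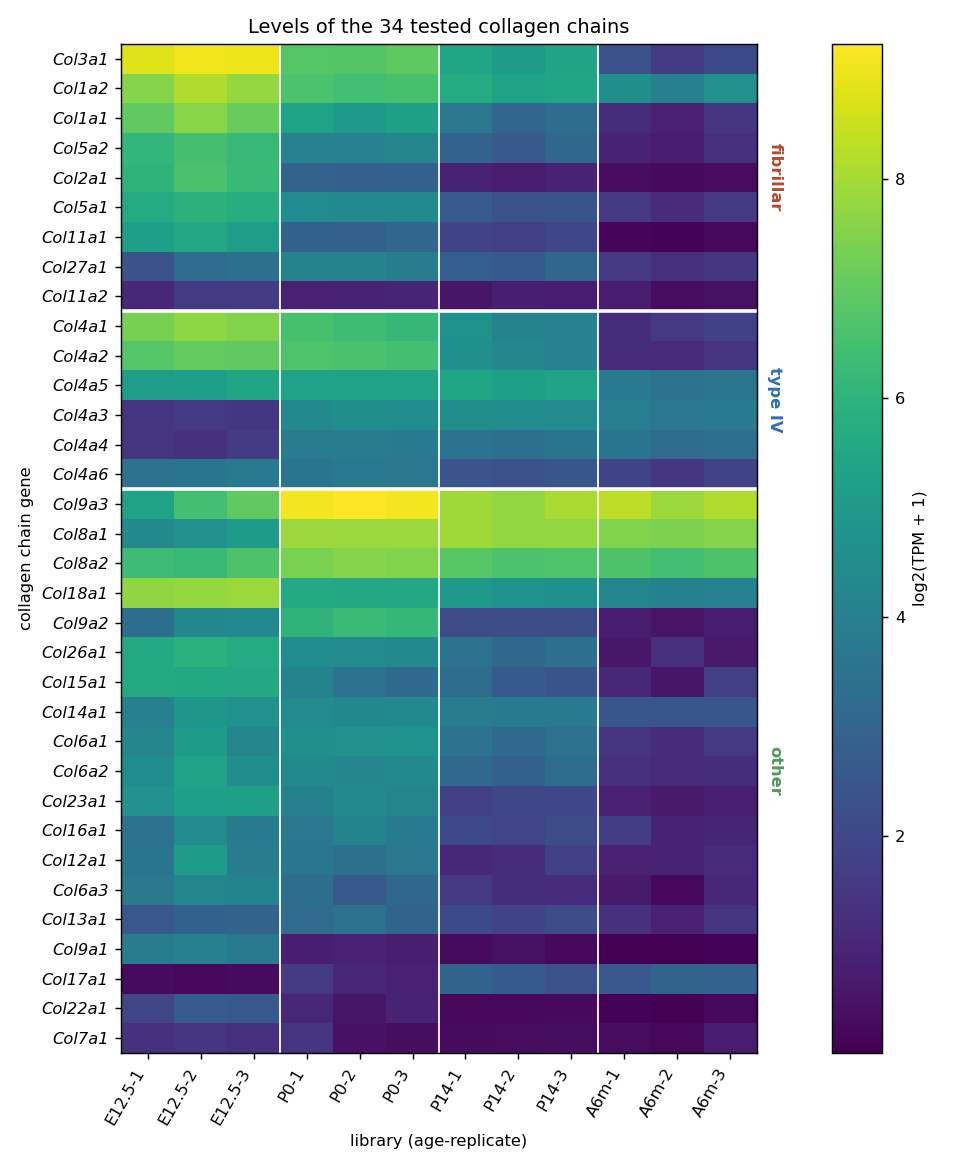
Levels of the 34 tested chains, as log2(TPM + 1), in the 12 libraries (columns, by age and replicate), with chains in rows by class and by falling mean. Most fibrillar rows darken with age, whereas Col4a3, Col4a4, Col8a1, Col9a3 and Col17a1 are brighter at P0, P14 and A6m than at E12.5.

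Among the fibrillar chains, the major stromal collagens were highest at E12.5 and lowest at A6m. Col3a1 (type III, chr1:45311538-45349706, plus strand, GRCm38) was at 436, 528 and 515 TPM at E12.5, 110.4, 109 and 121 TPM at P0, 43.0, 33.0 and 40.8 TPM at P14 and 3.96, 2.05 and 3.26 TPM at A6m. Every age lay below the one before it, with no overlap between libraries. At A6m its mean was 159.5-fold lower than at E12.5 (log2 difference -6.94 ± 0.16 (SE), adjusted p = 7.82e-11), and it fell at each step, by a log2 difference of -2.11 at P0, -1.53 at P14 and -3.31 at A6m.

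Type I collagen is a trimer of chains from Col1a1 (chr11:94936224-94953042, plus strand) and Col1a2 (chr6:4504814-4541544, plus strand). Col1a1 was at 126, 193 and 137 TPM at E12.5, 40.5, 30.2 and 37.4 TPM at P0, 11.71, 7.29 and 8.995 TPM at P14 and 1.36, 0.826 and 1.81 TPM at A6m. Col1a2 was at 188, 279 and 219.8 TPM at E12.5, 97.1, 88.4 and 93.4 TPM at P0, 51.1, 39.0 and 43.4 TPM at P14 and 23.7, 15.8 and 24.7 TPM at A6m. Libraries of different ages did not overlap for either gene, but Col1a1 fell further. At A6m Col1a1 was 114-fold lower than at E12.5 (log2 difference -6.03 ± 0.21 (SE), adjusted p = 9.12e-10), and Col1a2 10.7-fold lower (log2 difference -3.37 ± 0.18 (SE), adjusted p = 1.71e-08). The TPM ratio of Col1a1 to Col1a2, which TPM allows because it is per length, was 0.661 ± 0.0362 at E12.5, 0.386 ± 0.0396 at P0, 0.208 ± 0.0212 at P14, then 0.0610 ± 0.0109 at A6m (mean ± SD, n = 3 each), so that the libraries of no 2 ages overlapped in this ratio.

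The fibrillar chains best known from cartilage were at their highest at E12.5 too. Col2a1, the sole chain of type II collagen, was at 64.0, 94.3 and 75.6 TPM at E12.5, 6.82, 6.14 and 6.42 TPM at P0, 0.932, 0.680 and 0.873 TPM at P14 and 0.249, 0.190 and 0.268 TPM at A6m. It was 12.1-fold lower at P0 than at E12.5 (log2 difference -3.39 ± 0.13 (SE), adjusted p = 1.05e-08) and fell again at P14 and at A6m (log2 differences -2.03 and -0.56, adjusted p = 1.72e-06 and 0.0113), the A6m step not called with a pseudocount of 5 (adjusted p = 0.393).

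Col11a1, a type XI chain, averaged 39.6 ± 6.35, 6.69 ± 0.619, 2.71 ± 0.260 and 0.122 ± 0.0675 TPM at the 4 ages in order, and fell at each step (log2 differences -2.39, -1.05 and -1.72). Markers of cartilage cells gave these values beside them. Of 8 such markers 7 were in the table, with sums in TPM of 29.8 to 48.6 at E12.5, 2.65 to 3.23 at P0, 4.20 to 6.46 at P14, then 2.30 to 4.398 at A6m, and with the defining genes Acan, encoding aggrecan, and Matn1, encoding matrilin, at no more than 0.119 and 0.0778 TPM in any library. Hapln1, which encodes a link protein, had 24.7, 20.2 and 17.0 TPM at E12.5, and Cnmd, encoding chondromodulin, had 4.85, 27.4 and 11.8 TPM. Of the 3 of these markers that were tested, Hapln1 and Cnmd were lower at P0 than at E12.5 (log2 differences -3.91 and -2.55, adjusted p = 9.84e-09 and 5.89e-04), as Col2a1 and Col11a1 were. Hapln1 reached 1 TPM at E12.5 and at no other age, so it entered the test only through the age at which it was high. Ucma, also tested, was not called (0.08, adjusted p = 0.793). The untested Matn3 and Comp averaged 0.537 and 0.348 TPM at E12.5 and 0.701 and 0.557 TPM at P0. The part of these markers in the values of Col2a1 and Col11a1 was not tested.

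Type V chains, which nucleate type I fibrils, fell as well. Col5a1 averaged 55.2 ± 5.35, 20.8 ± 0.865, 4.56 ± 0.787 and 1.71 ± 0.356 TPM and Col5a2 77.0 ± 11.2, 16.6 ± 0.732, 6.40 ± 1.29 and 1.00 ± 0.401 TPM at E12.5, P0, P14 and A6m. Both fell at each of the 3 steps, and between A6m and E12.5 by log2 differences of -4.38 and -5.29 (adjusted p = 2.68e-10 and 4.16e-10). Col11a2 was low, at 1.72 ± 0.587, 0.908 ± 0.0830, 0.629 ± 0.116 and 0.416 ± 0.207 TPM, and fell at P0 (adjusted p = 0.0316, or 0.123 with scaling) and at A6m against E12.5 (adjusted p = 5.14e-04).

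Col27a1, a fibrillar chain of cartilage and other tissues, was the exception among the fibrillar chains tested. It averaged 7.42 ± 2.86, 15.8 ± 1.46, 6.19 ± 1.32 and 1.72 ± 0.275 TPM, was 2.13-fold higher at P0 than at E12.5 (log2 difference 1.06 ± 0.24 (SE), adjusted p = 0.00253), and then fell at P14 and A6m (log2 differences -1.23 and -1.39). The remaining fibrillar chains, Col5a3 and Col24a1, were not tested and averaged at most 1.04 and 0.447 TPM at any age.

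In counts, 8 of 9 fibrillar chains fell and 1 rose at P0 against E12.5 (median log2 difference -2.03, against -0.27 over all genes). The 8 include Col11a2, which entered the test only through E12.5. At P14 against P0 8 fell and 0 rose (median -1.27, against -0.41). At A6m against P14 8 fell and 0 rose (median -1.39, against -0.04). Of all genes 43.7%, 53.5% and 12.1% were called lower in these comparisons, and 18.6%, 5.33% and 8.78% higher. With scaling 7, 8 and 8 of the fibrillar chains fell, against 31%, 19.8% and 14% of all genes. In the same comparisons 1, 0 and 0 rose, against 29%, 22.7% and 15.2% of all genes.

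The stretch before the Col3a1 start is shown because this gene had the largest log2(TPM + 1) difference of any chain at A6m against E12.5. It is the 250 bases upstream of the RefSeq start (GRCm38.p6, chr1:45311288-45311537, plus strand), 5′ to 3′, with a TATAAA match, at position -117 from the start, in capitals.
Col3a1: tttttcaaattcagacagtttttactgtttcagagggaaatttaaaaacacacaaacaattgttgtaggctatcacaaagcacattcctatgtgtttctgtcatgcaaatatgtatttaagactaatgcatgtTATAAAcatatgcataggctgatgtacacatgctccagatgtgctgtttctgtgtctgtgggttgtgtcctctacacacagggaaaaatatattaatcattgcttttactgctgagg
In the 250 bases before the start, TATAAA was found on either strand in 5 of 38 windows of collagen chains (35 chains had a window) and in 12.4% of 32851 RefSeq windows, and CCAAT in 13 of 38 and 33.8%. These are matches of letters and were not tested as sites.

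The 6 type IV chains lie as 3 head-to-head pairs in the genome, and the pairs followed different courses. The trimer of Col4a1 and Col4a2 products is the basement membrane collagen of nearly all tissues, vessels included. That of Col4a3, Col4a4 and Col4a5 is known from the kidney glomerulus, where it replaces that of Col4a1 and Col4a2 in development, and Col4a6 joins Col4a5 in a trimer of its own.

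Col4a1 (chr8:11198423-11312826, minus strand) was at 163, 205 and 178 TPM at E12.5, 94.0, 82.8 and 70.4 TPM at P0, 25.9, 16.7 and 16.2 TPM at P14 and 1.36, 1.91 and 2.44 TPM at A6m. Col4a2 (chr8:11312805-11449287, plus strand) was at 111, 129.99 and 125 TPM at E12.5, 102, 94.9 and 87.9 TPM at P0, 24.3, 18.7 and 16.0 TPM at P14 and 1.30, 1.22 and 1.68 TPM at A6m. For each gene the libraries of adjacent ages did not overlap. Both fell at P14 and at A6m, Col4a1 by log2 differences of -2.04 at P14 and -2.81 at A6m, and Col4a2 by -2.23 and -3.09, ending 95.5-fold and 87.1-fold lower at A6m than at E12.5 (adjusted p = 4.93e-10 and 8.51e-11).

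Between P0 and E12.5 Col4a1 fell (log2 difference -1.14 ± 0.19 (SE), adjusted p = 3.74e-04), while the smaller difference of Col4a2 (log2 difference -0.36 ± 0.14 (SE), adjusted p = 0.0382) was no longer called with scaling (-0.08, adjusted p = 0.628), with the replicate number as a block (adjusted p = 0.0582) or without E12.5 replicate 2 or 3 or P0 replicate 2 or 3 (adjusted p = 0.110, 0.0891, 0.0774 and 0.120). The TPM ratio of Col4a1 to Col4a2 stayed within 0.801 to 1.58 over all 12 libraries.

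The second pair went the other way at birth. Col4a3 (chr1:82586921-82722059, plus strand) was at 1.62, 1.98 and 1.84 TPM at E12.5, 20.6, 23.2 and 21.9 TPM at P0, 22.8, 22.3 and 21.2 TPM at P14 and 14.6, 11.8 and 12.7 TPM at A6m. Col4a4 (chr1:82448423-82586849, minus strand) was at 1.65, 1.53 and 2.13 TPM at E12.5, 13.97, 14.3 and 13.3 TPM at P0, 10.53, 9.70 and 11.2 TPM at P14 and 11.02, 8.62 and 9.53 TPM at A6m. Both were low in all E12.5 libraries and several-fold higher in every later one. At P0 Col4a3 was 12.1-fold higher than at E12.5 (log2 difference 3.03 ± 0.09 (SE), adjusted p = 2.85e-09) and Col4a4 7.84-fold higher (log2 difference 2.43 ± 0.11 (SE), adjusted p = 3.16e-08).

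After birth the level of Col4a3 at P14 was 22.1 ± 0.827 TPM, against 21.9 ± 1.30 TPM at P0 (log2 difference 0.01, adjusted p = 0.924), or higher with scaling (0.51, adjusted p = 2.42e-04). Col4a4 fell at P14 as deposited (-0.38, adjusted p = 0.0141), a call lost with scaling (0.10, adjusted p = 0.36) and without P14 replicate 2 (adjusted p = 0.0562). At A6m Col4a3 fell against P14 (-0.73, adjusted p = 3.00e-04) and Col4a4 was not called (-0.10, adjusted p = 0.601). Against E12.5 both were still higher at A6m, 7.16-fold and 5.499-fold.

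The third pair is on the X chromosome. Col4a5 (chrX:141475385-141689234, plus strand) was at 34.4, 35.9 and 42.7 TPM at E12.5, 39.3, 38.8 and 41.4 TPM at P0, 43.9, 36.9 and 40.9 TPM at P14 and 13.1, 10.3 and 11.5 TPM at A6m. Its libraries overlapped among E12.5, P0 and P14 and were all lower at A6m. It was not called at P0 against E12.5 (log2 difference 0.08, adjusted p = 0.509) or P14 against P0 (log2 difference 0.02, adjusted p = 0.869), but with scaling it rose at both (0.36 and 0.53, adjusted p = 0.00201 and 3.37e-04). It fell at A6m against P14 (log2 difference -1.72 ± 0.11 (SE), adjusted p = 2.09e-06).

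Col4a6 averaged 11.2 ± 1.25, 11.8 ± 0.535, 4.33 ± 0.386 and 2.45 ± 0.572 TPM at the 4 ages in order. It was not called at P0 (adjusted p = 0.646, or 0.0181 with scaling, log2 difference 0.33), and fell at P14 (-1.27, adjusted p = 2.82e-05) and at A6m (-0.64, adjusted p = 0.00611). The A6m libraries were those with Xist and without Ddx3y, and the part of this in the 2 X-linked genes was not tested.

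Together the type IV transcripts changed make-up. The TPM ratio of Col4a3 to Col4a1 was 0.0100 ± 0.000360 at E12.5, 0.270 ± 0.0467 at P0, 1.18 ± 0.257 at P14, then 7.35 ± 2.95 at A6m (mean ± SD, n = 3 each). That of Col4a5 to Col4a1 was 0.209 ± 0.0327 at E12.5, 0.491 ± 0.0871 at P0, 2.14 ± 0.422 at P14, then 6.58 ± 2.67 at A6m. The libraries of no 2 ages overlapped in either ratio, and Col4a1 exceeded Col4a3 in every E12.5 and P0 library and was below it in every A6m library. In all, 2 of 6 type IV chains rose and 2 fell at P0, 0 rose and 4 fell at P14, and 0 rose and 5 fell at A6m, each against the age before. In these comparisons 18.6%, 5.33% and 8.78% of all genes were called higher and 43.7%, 53.5% and 12.1% lower. With scaling 4 of the 6 rose and 1 fell at P0, 2 rose and 3 fell at P14, and 0 rose and 5 fell at A6m, against 29%, 22.7% and 15.2% of all genes higher and 31%, 19.8% and 14% lower.

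**Figure D3:**
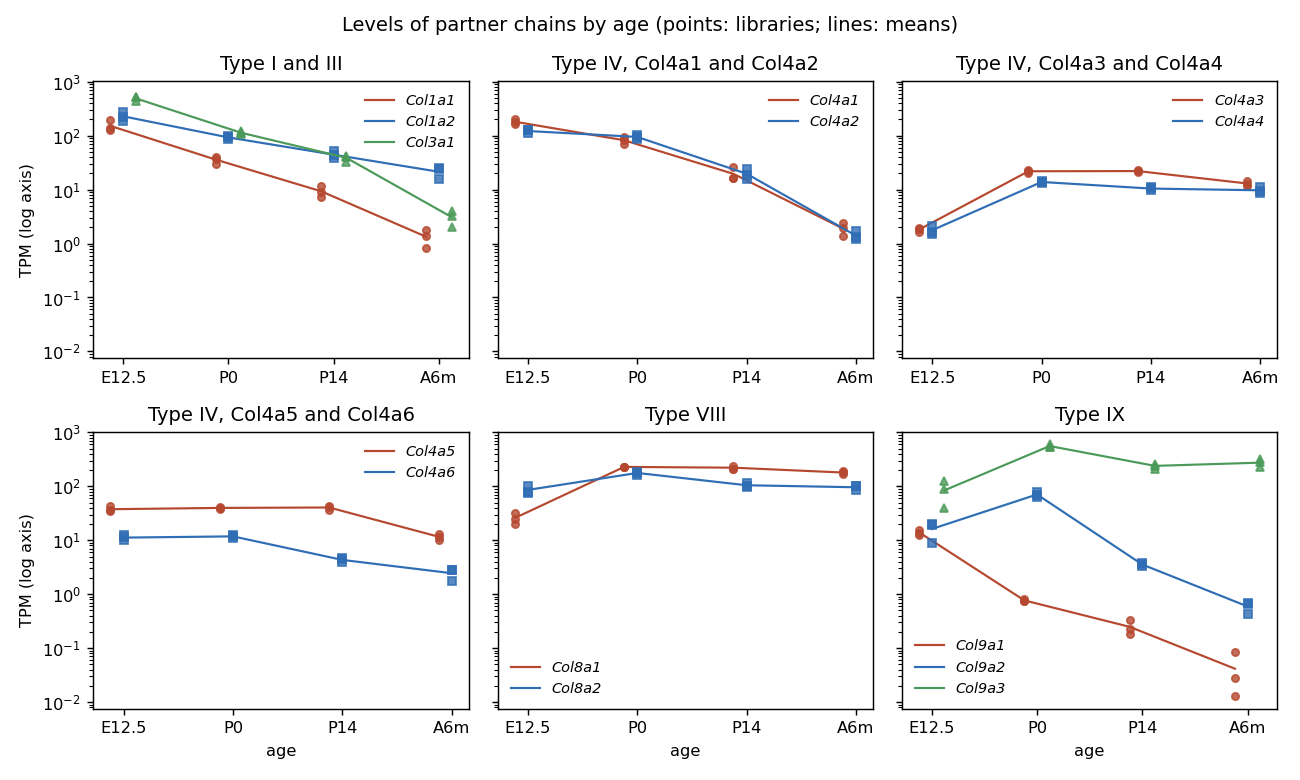
TPM on a log axis by age, for chains that share a trimer type and for Col3a1 beside type I, with a point per library (3 per age) and a line through the means. Col4a1 and Col4a2 decline together to means of 1.91 and 1.40 TPM at A6m, Col4a3 and Col4a4 step up at P0, Col8a1 steps up past Col8a2, and the 3 type IX chains separate.

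The sequences between the paired starts are shown because 2 chains of 1 trimer lie on either side of each. In the GENCODE annotation the first exons of Col4a1 and Col4a2 overlap by 22 bases, in capitals in 38 bases of the plus strand at chr8:11312797-11312834. Between Col4a3 and Col4a4 lie 71 bases, and the whole gap, at chr1:82586850-82586920, is given on the plus strand (RefSeq sequence, GRCm38.p6, both 5′ to 3′).
Col4a1/Col4a2: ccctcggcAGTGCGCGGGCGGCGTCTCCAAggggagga
Col4a3/Col4a4: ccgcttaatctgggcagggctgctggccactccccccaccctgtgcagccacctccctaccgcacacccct
On neither strand did the gap between Col4a3 and Col4a4 hold TATAAA, found in 4.41% of the 71 bases before all RefSeq starts, or GGGCGG, found in 20.7%. It did not hold CCAAT, found in 13.3%, either. Between Col4a5 and Col4a6 lie 1308 bases.

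Among the other chains, those of types VIII and IX made up most of the collagen transcripts from birth on. Type VIII collagen forms short-chain networks under endothelia and in the cornea, from the products of Col8a1 (chr16:57624258-57754737, minus strand) and Col8a2 (chr4:126286793-126314330, plus strand). Col8a1 was at 20.3, 24.9 and 32.4 TPM at E12.5, 228, 228 and 232 TPM at P0, 240.2, 212 and 213 TPM at P14 and 181, 170.1 and 190.0 TPM at A6m. All later libraries lay above all E12.5 libraries. Col8a1 was 8.88-fold higher at P0 than at E12.5 (log2 difference 3.13 ± 0.13 (SE), adjusted p = 1.68e-08).

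At P14 Col8a1 overlapped with P0 and was not called (log2 difference -0.05, adjusted p = 0.76), whereas with scaling it rose (0.46, adjusted p = 9.28e-04). At A6m its libraries were below those of P14 without overlap, at a log2 difference of -0.30 that was not called (adjusted p = 0.144) but was with scaling (adjusted p = 0.0423) and without E12.5 replicate 1 or 3 (adjusted p = 0.0378 and 0.0257).

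Col8a2 was at 80.1, 76.1 and 101 TPM at E12.5, 166, 186 and 179.6 TPM at P0, 113, 98.0 and 103 TPM at P14 and 101, 87.0 and 101 TPM at A6m. It was highest in the P0 libraries, and the A6m libraries overlapped with those of E12.5. It rose at P0 against E12.5 (log2 difference 1.05 ± 0.11 (SE), adjusted p = 9.99e-06) and fell at P14 against P0 (log2 difference -0.75 ± 0.11 (SE), adjusted p = 2.13e-04). At A6m it was not called against E12.5 (log2 difference 0.17, adjusted p = 0.176) as deposited and was called higher with scaling (1.01, adjusted p = 1.04e-06) or without E12.5 replicate 3 (adjusted p = 0.0118). The TPM ratio of Col8a1 to Col8a2 was 0.300 ± 0.0405 at E12.5, 1.30 ± 0.0757 at P0, 2.12 ± 0.0515 at P14, then 1.88 ± 0.0778 at A6m.

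The 250 bases before both type VIII starts are shown because both genes rose at birth (RefSeq, GRCm38.p6, 5′ to 3′ on the strand of the gene), for Col8a1 at chr16:57754738-57754987, minus strand, and for Col8a2 at chr4:126286544-126286793, plus strand. Capitals mark GGGCGG on either strand, of which each held 4 matches, with 2 overlapping in Col8a2.
Col8a1: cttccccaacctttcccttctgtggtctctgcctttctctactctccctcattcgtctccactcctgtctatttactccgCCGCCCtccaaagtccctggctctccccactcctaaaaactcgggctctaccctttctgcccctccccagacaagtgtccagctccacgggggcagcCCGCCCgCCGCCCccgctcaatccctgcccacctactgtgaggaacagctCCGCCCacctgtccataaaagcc
Col8a2: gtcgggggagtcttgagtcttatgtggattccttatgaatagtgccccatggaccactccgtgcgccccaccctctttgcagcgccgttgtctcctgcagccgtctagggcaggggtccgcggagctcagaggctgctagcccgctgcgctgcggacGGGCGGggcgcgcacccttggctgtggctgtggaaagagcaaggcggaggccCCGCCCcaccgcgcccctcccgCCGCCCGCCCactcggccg
GGGCGG was in 22 of 38 collagen windows and in 32.7% of all windows. TAATCC, the core motif of homeodomain factors of the Otx family, was in 0 of 38 and 6.25%.

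Type IX collagen sits on cartilage fibrils as a trimer of 1 chain each from Col9a1, Col9a2 and Col9a3, and these 3 transcripts parted in the choroid plexus. Col9a3 (chr2:180597790-180622189, plus strand) was at 39.3, 88.6 and 125 TPM at E12.5, 541, 603 and 533 TPM at P0, 242, 212 and 265 TPM at P14 and 317, 228 and 280.4 TPM at A6m. Its P0 libraries were the highest and its E12.5 libraries the lowest. It was 6.64-fold higher at P0 than at E12.5 (log2 difference 2.86 ± 0.32 (SE), adjusted p = 1.69e-05), fell at P14 against P0 (log2 difference -1.22 ± 0.32 (SE), adjusted p = 0.00718), and was not called at A6m against P14 (log2 difference 0.19, adjusted p = 0.739), which left it 3.27-fold higher at A6m than at E12.5 (adjusted p = 2.73e-04). Of its annotated exon bases 234, or 6.07%, also belong to exons of Tcfl5 on the opposite strand.

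Col9a2 was at 9.09, 19.2 and 20.2 TPM at E12.5, 64.3, 78.3 and 69.7 TPM at P0, 3.33, 3.74 and 3.59 TPM at P14 and 0.701, 0.421 and 0.654 TPM at A6m. It peaked at P0 and was lower in every P14 and A6m library than in any earlier one. It rose 4.38-fold at P0 (log2 difference 2.13 ± 0.23 (SE), adjusted p = 1.47e-05) and then fell, to be 19.9-fold lower at P14 than at P0 (log2 difference -3.98 ± 0.23 (SE), adjusted p = 9.30e-07), the largest log2(TPM + 1) difference of any chain in that comparison. Col9a1 was at 13.7, 15.8 and 12.6 TPM at E12.5, 0.741, 0.820 and 0.741 TPM at P0, 0.226, 0.337 and 0.182 TPM at P14 and 0.0128, 0.0279 and 0.0837 TPM at A6m. It was highest at E12.5, 18.3-fold lower at P0 than at E12.5 (log2 difference -3.08 ± 0.11 (SE), adjusted p = 8.06e-09), and fell at P14 against P0 (-0.50, adjusted p = 0.00332, or 0.0509 with scaling).

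The TPM ratio was 5.04 on average for Col9a3 over Col9a2 at E12.5, and at A6m that ratio was 428 to 543. At P0 and P14 the ratio was 7.92 ± 0.427 and 67.7 ± 9.61. From P14 on the partners of Col9a3 were at most 3.74 TPM.

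Types XV and XVIII are collagens of the basement membrane zone that carry sugar side chains, and a C-terminal fragment of the Col18a1 product is endostatin. Col18a1 (chr10:77052178-77166548, minus strand) was at 207, 217 and 229 TPM at E12.5, 49.9, 47.3 and 47.4 TPM at P0, 30.3, 25.2 and 23.8 TPM at P14 and 17.99, 15.6 and 16.1 TPM at A6m. Libraries of different ages did not overlap. It was 4.52-fold lower at P0 than at E12.5 (log2 difference -2.15 ± 0.09 (SE), adjusted p = 1.56e-08), and fell again at P14 and at A6m (-0.85 and -0.64). Col15a1 averaged 47.9 ± 1.60, 11.6 ± 4.53, 6.12 ± 2.45 and 1.34 ± 0.986 TPM and fell at P0 (-2.02, adjusted p = 2.79e-04) and at A6m against P14 (-1.63, adjusted p = 0.00508). At P14 against P0 Col15a1 was not called (-0.81, adjusted p = 0.0532) and was at an adjusted p of 0.0220 to 0.0375 without P0 replicate 3, P14 replicate 1, or A6m replicate 2 or 3.

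Type VI collagen forms beaded microfilaments from the products of Col6a1, Col6a2 and Col6a3. Col6a1 averaged 22.6 ± 8.60, 24.8 ± 0.523, 9.52 ± 1.42 and 1.63 ± 0.320 TPM, Col6a2 27.4 ± 9.82, 19.9 ± 1.02, 7.65 ± 1.09 and 1.33 ± 0.0696 TPM and Col6a3 15.7 ± 3.21, 7.25 ± 2.04, 1.51 ± 0.359 and 0.624 ± 0.449 TPM at the 4 ages in order. Among the E12.5 libraries, replicate 2 had the highest level of each. Col6a1 and Col6a2 were not called at P0 against E12.5 (adjusted p = 0.453 and 0.0966), though Col6a2 was lower without E12.5 replicate 1 (-0.53, adjusted p = 0.0368) and Col6a1 higher without E12.5 replicate 2 (0.47, adjusted p = 0.0129). Both fell at P14 (-1.30 and -1.28) and at A6m (-1.997 and -1.88). Col6a3 fell at P0 and P14 (-1.03 and -1.69). The chains Col6a4, Col6a5 and Col6a6 stayed at or under 0.340 TPM in every library and were not tested.

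The FACIT chains, which associate with the surface of fibrils, did not rise in any comparison outside type IX. Col14a1 averaged 23.1 ± 7.14, 20.1 ± 1.10, 13.1 ± 0.577 and 4.59 ± 0.0461 TPM, Col12a1 19.4 ± 11.9, 11.02 ± 1.14, 1.59 ± 0.679 and 0.965 ± 0.211 TPM and Col16a1 14.9 ± 5.79, 14.01 ± 2.68, 3.12 ± 0.244 and 1.38 ± 0.759 TPM. None of the 3 was called at P0 against E12.5 (adjusted p = 0.499, 0.117 and 0.919), but without E12.5 replicate 1 Col14a1 and Col12a1 were lower (-0.41 and -0.93, adjusted p = 0.00178 and 0.0235). All 3 fell at P14 (-0.58, -2.24 and -1.85), the call for Col14a1 being lost with scaling (-0.09, adjusted p = 0.607). At A6m against P14 Col14a1 and Col16a1 fell again (-1.34 and -0.84). Col22a1, a FACIT chain of tissue junctions, averaged 4.42 ± 1.39, 0.789 ± 0.291, 0.176 ± 0.0217 and 0.0884 ± 0.0677 TPM and fell at P0 and P14 (-1.58 and -0.59).

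Of the transmembrane collagens, Col17a1, whose product anchors epithelial cells in hemidesmosomes, rose at birth and again by P14. It was at 0.227, 0.155 and 0.223 TPM at E12.5, 2.02, 1.02 and 0.802 TPM at P0, 6.72, 5.23 and 3.95 TPM at P14 and 4.69, 6.85 and 6.62 TPM at A6m. It was highest at P14 and A6m and at most 0.227 TPM in each E12.5 library. Col17a1 rose at P0 (log2 difference 0.89 ± 0.22 (SE), adjusted p = 0.00446) and at P14 against P0 (log2 difference 1.48 ± 0.22 (SE), adjusted p = 2.51e-04), and the log2(TPM + 1) scale understates changes at such levels. At A6m it was not called against P14 (adjusted p = 0.653).

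Col23a1 fell at each step, averaging 32.8 ± 7.12, 17.6 ± 1.95, 2.74 ± 0.307 and 0.741 ± 0.104 TPM (-0.84, -2.32 and -1.10). Col13a1 averaged 6.00 ± 1.08, 8.46 ± 1.498, 3.14 ± 0.335 and 1.34 ± 0.459 TPM, was not called at P0 (adjusted p = 0.0562, or 0.00264 and higher with scaling) and fell at P14 and A6m (-1.18 and -0.84). Col26a1, a little-studied chain, averaged 53.1 ± 5.34, 21.1 ± 0.745, 9.18 ± 1.28 and 0.849 ± 0.495 TPM and fell at every step (-1.29, -1.12 and -2.49). Col7a1, of the anchoring fibrils of skin, averaged 1.55 ± 0.109, 0.779 ± 0.753, 0.257 ± 0.0352 and 0.371 ± 0.279 TPM and was called at A6m against E12.5 (adjusted p = 0.00548, or 0.0693 with scaling) and in no other comparison. The chains of this class not yet named, Col10a1, Col19a1, Col20a1, Col25a1 and Col28a1, averaged at most 1.08 TPM at any age. At P0 against E12.5 5 of the 19 tested chains rose and 7 fell. At P14 against P0 1 rose and 15 fell, and at A6m against P14 0 and 10. At A6m against E12.5 3 rose and 15 fell. With scaling these were 6 and 7, 2 and 13, 0 and 11, and 4 and 14. Of all genes 18.6%, 5.33%, 8.78% and 15.2% rose and 43.7%, 53.5%, 12.1% and 62% fell. Scaled, 29%, 22.7%, 15.2% and 35.4% rose and 31%, 19.8%, 14% and 35.8% fell. Col22a1, Col9a1 and Col7a1, which fell, would be untested without E12.5.

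**Figure D4:**
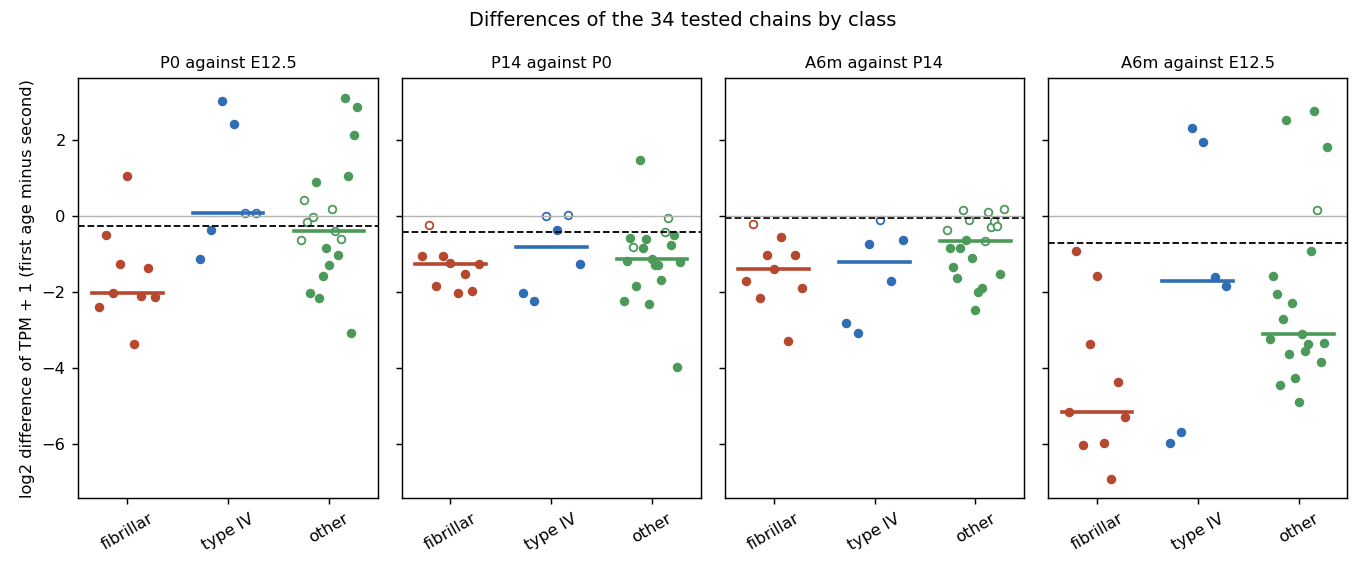
Log2 differences of TPM + 1, first age minus second, of the 34 tested chains by class in 4 comparisons, filled where the limma adjusted p was under 0.05, with a bar at the class median and a dashed line at the median of all genes. The fibrillar median lies at -5.17 for A6m against E12.5, against -0.71 over all genes.

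Over all classes, at P0 against E12.5 8 chains rose and 17 fell of 34 tested, or 23.5% and 50%, near the 18.6% and 43.7% called in each direction over all genes. With scaling 11 rose and 15 fell, against 29% and 31% of all genes. The 8 that rose as deposited were Col4a3, Col4a4, Col8a1, Col8a2, Col9a2, Col9a3, Col17a1 and Col27a1. The 17 that fell include Col11a2, Col22a1 and Col9a1, which entered the test only through E12.5.

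At P14 against P0 Col17a1 rose and 27 of 34 fell, or 79.4%, against 53.5% of all genes lower and 5.33% higher. With scaling 4 rose (Col4a3, Col4a5, Col8a1 and Col17a1) and 24 fell, against 22.7% and 19.8% of all genes. The median chain differed by -1.20, against -0.41 over all genes, or by -0.73 and 0.00 with scaling.

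At A6m against P14, where the medians of all genes were close to 0, 23 of 34 chains fell, or 67.6%, against 12.1% of all genes. By limma 0 rose, at an unadjusted p under 0.05 as well and in each of the 21 alternatives, where 8.78% of all genes did. With scaling 24 fell, against 14% of all genes lower and 15.2% higher. At A6m against E12.5 5 rose (Col4a3, Col4a4, Col8a1, Col9a3 and Col17a1) and 28 fell, against 15.2% and 62% of all genes, or 6 and 27 with scaling, against 35.4% and 35.8%. The 28 again include Col11a2, Col22a1 and Col9a1. They also include Col7a1, which was at 1 TPM or more in 4 libraries, those of E12.5 and P0 replicate 1. It would thus not have been tested without E12.5. The F-test over the 4 ages called 34 of 34 chains, against 85.1% of all genes.

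Markers of the cell types that could hold these transcripts moved as follows, in summed TPM from the lowest to the highest library. In bulk tissue fewer cells of a type and less RNA per cell cannot be told apart. The 8 fibroblast markers summed to 489.8 to 605 at E12.5, 619.6 to 637 at P0, 414 to 454 at P14, then 268 to 333 at A6m, so the P0 libraries were all above those of E12.5 while the fibrillar sum was 310.2 ± 13.8 TPM at P0, against 1134 ± 164 TPM at E12.5. With scaling the fibroblast markers summed to 347 to 409 at E12.5, 527 to 564 at P0, 531 to 551 at P14, then 361 to 420 at A6m. The E12.5 and A6m libraries then overlapped, as did those of P0 and P14. Of the 7 fibroblast markers that were tested, 4 rose at P0 against E12.5 and 3 fell, where 18.6% and 43.7% of all genes did. Dcn, encoding decorin, rose to 176 ± 9.91 TPM at P0, against 43.9 ± 9.84 TPM at E12.5, and Pdgfra to 125 ± 0.787 TPM, against 54.8 ± 10.9 TPM, as did Ogn and Mfap5. Lum, encoding lumican, fell to 44.8 ± 0.606 TPM at P0, against 201 ± 22.8 TPM at E12.5, and Fbln1, encoding fibulin, to 21.7 ± 1.90 TPM, against 79.2 ± 8.01 TPM. Pdgfrb fell as deposited (adjusted p = 0.0265) but was not called with scaling (adjusted p = 0.22). Dpt, a marker of adult fibroblasts, was at 0.0864 TPM or less in every library and at 0 in all those of E12.5 and A6m.

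The 8 markers of embryonic meningeal mesenchyme summed to 245 to 327 at E12.5, 46.7 to 65.6 at P0, 16.2 to 25.3 at P14, then 9.18 to 11.1 at A6m, and the 8 of endothelium to 356 to 397 at E12.5, 206 to 272 at P0, 81.7 to 109 at P14, then 23.1 to 36.7 at A6m. Both sums were lower at each later age without overlap between libraries. The same held for the sum of neuron and neural progenitor markers given below and for the sums of the fibrillar and the type IV chains. Of the meningeal markers 7 fell and 1 rose at P0 against E12.5, where 43.7% and 18.6% of all genes did. Aldh1a2 rose, averaging 2.71 TPM at E12.5 and 20.3 TPM at P0. Crabp2, the largest at E12.5, averaged 137 TPM there and 5.80 TPM at P0. The 8 mural cell markers summed to 119 to 171 at E12.5, 92.9 to 115 at P0, 73.8 to 104 at P14, then 12.98 to 22.3 at A6m. With scaling this sum averaged 96.5, 90.2, 107.5 and 23.2 at the 4 ages in order. The scaled E12.5, P0 and P14 libraries overlapped. At P0 against E12.5 3 mural markers rose (Kcnj8, Myh11 and Abcc9) and 2 fell, or 5 and 2 with scaling. Those that fell were Notch3 and Acta2, the latter averaging 49.2 TPM at E12.5 and 2.94 TPM at P0. Of all genes 18.6% rose and 43.7% fell, or 29% and 31% with scaling. The 8 markers of neurons and neural progenitors summed to 196 to 433 at E12.5, 55.8 to 124 at P0, 29.97 to 55.6 at P14, then 20.1 to 23.8 at A6m. The part of any of these lists in the collagen values was not tested.

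Genes that modify, export, cross-link, cleave or bind collagen were followed in 6 lists with 53 genes, of which 52 were in the table and 50 tested. Of the 50, Tll2 and Itga11 reached 1 TPM at E12.5 and at no other age, and Mmp8 at P0 and at no other age. Colgalt2, Mmp9 and Itga2 would not have passed the filter without the E12.5 libraries. These genes thus entered through the ages at which they were high, and the counts below include them. At A6m against E12.5 6 rose and 37 fell, or 12% and 74%, where 15.2% and 62% of all genes did, and the median log2 difference was -1.46, against -0.71 over all genes. With scaling 15 rose and 31 fell, or 30% and 62%, where 35.4% and 35.8% of all genes did. At P0 against E12.5 13 rose and 20 fell, or 26% and 40%, near the 18.6% and 43.7% of all genes. Scaled, these were 23 and 18, or 46% and 36%, beside 29% and 31% of all genes. At P14 against P0 7 rose and 34 fell, or 14% and 68%, beside 5.33% and 53.5% of all genes. Scaled, these were 13 and 14, or 26% and 28%, near the 22.7% and 19.8% of all genes. At A6m against P14 5 rose and 28 fell, or 10% and 56%, beside 8.78% and 12.1% of all genes. Scaled, these were 5 and 30, or 10% and 60%, beside 15.2% and 14% of all genes. The counts of the single lists below are all for A6m against E12.5. They are to be read against the 15.2% higher and 62% lower of all genes, and counts with scaling against 35.4% and 35.8%. The lists were not tested against these shares.

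In the list of chaperones and export factors 6 of 8 fell and 0 rose at A6m against E12.5, whereas with scaling 3 fell and 5 rose. Serpinh1, encoding the collagen chaperone HSP47, was at 633, 649.9 and 645 TPM at E12.5, 285, 248 and 261 TPM at P0, 174, 168 and 184 TPM at P14 and 53.1, 54.8 and 54.3 TPM at A6m. It was lower at each later age, 11.9-fold lower at A6m than at E12.5 (log2 difference -3.55 ± 0.06 (SE), adjusted p = 1.51e-11), although its difference at P14 against P0 was not called with scaling (-0.08). Fkbp10, a prolyl isomerase gene, and Sparc, which encodes a collagen-binding protein, averaged 5.31 ± 0.395 and 172 ± 9.66 TPM at A6m, against 23.5 ± 1.12 and 833 ± 18.5 TPM at P14 (log2 differences -1.96 and -2.27).

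Among genes for hydroxylation and glycosylation 11 of 15 fell and 1 rose at A6m against E12.5, or 9 and 4 with scaling. The prolyl hydroxylase subunit gene P4ha3 averaged 9.32 ± 1.78, 3.69 ± 0.351, 0.597 ± 0.136 and 0.196 ± 0.0681 TPM, and the lysyl hydroxylase gene Plod2 37.1 ± 0.517, 19.0 ± 0.198, 15.9 ± 0.511 and 9.96 ± 1.07 TPM. Both fell at A6m against E12.5 (-3.10 and -1.80, adjusted p = 5.97e-09 and 2.62e-09). In the cross-linking list 4 of 6 fell and 1 rose, or 3 and 2 with scaling. Pxdn, encoding the peroxidase that links type IV collagen, was at 33.0, 47.7 and 42.5 TPM at E12.5, 19.2, 19.2 and 16.7 TPM at P0, 5.51, 4.64 and 4.53 TPM at P14 and 0.577, 0.370 and 0.644 TPM at A6m. Its libraries fell without overlap at every age, ending 77.4-fold lower at A6m than at E12.5 (log2 difference -4.77 ± 0.14 (SE), adjusted p = 2.67e-10).

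The lysyl oxidase genes differed among themselves. Lox averaged 14.5 ± 6.44, 19.9 ± 0.883, 5.99 ± 0.958 and 1.32 ± 0.411 TPM and Loxl2 50.5 ± 5.87, 13.3 ± 0.866, 15.8 ± 2.33 and 5.34 ± 0.302 TPM, and both fell at A6m against E12.5 (-2.66 and -3.02), whereas Loxl3 averaged 15.9 ± 1.61, 9.14 ± 0.468, 5.502 ± 0.833 and 17.9 ± 3.79 TPM and rose at A6m against P14 (log2 difference 1.52, adjusted p = 5.99e-05). For procollagen processing 5 of 7 genes fell and 2 rose at A6m against E12.5, or 5 and 2 with scaling. Adamts3, a procollagen N-proteinase gene, averaged 12.8 ± 1.11, 1.75 ± 0.345, 0.269 ± 0.1003 and 0.103 ± 0.0800 TPM (-3.64), while Pcolce2, encoding an enhancer of the C-proteinase, averaged 6.53 ± 3.01, 23.8 ± 5.61, 62.6 ± 4.11 and 89.2 ± 4.15 TPM (3.68, adjusted p = 3.19e-07).

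Genes for collagen breakdown fell in 5 of 7 cases and rose in 1 at A6m against E12.5, or 5 and 1 with scaling. The gelatinase gene Mmp2 averaged 92.9 ± 10.6, 35.8 ± 2.38, 24.8 ± 1.40 and 12.4 ± 2.45 TPM and the membrane collagenase gene Mmp14 119.7 ± 14.9, 55.3 ± 3.43, 35.8 ± 3.37 and 16.8 ± 1.65 TPM. Fap, encoding a serine protease that trims collagen fragments, went up, averaging 10.1 ± 2.64, 39.7 ± 4.57, 92.3 ± 3.38 and 91.3 ± 5.28 TPM (3.09, adjusted p = 1.09e-08). Of the collagen receptors 6 of 7 fell and 1 rose at A6m against E12.5, or 6 and 1 with scaling. The integrin gene Itga10, whose product binds collagen in cartilage, averaged 1.35 ± 0.484, 5.83 ± 0.225, 9.45 ± 0.623 and 4.12 ± 0.197 TPM, and the type IV collagen-binding Itga1 8.22 ± 0.216, 6.71 ± 0.705, 4.01 ± 0.641 and 1.54 ± 0.276 TPM (log2 differences 1.15 and -1.87).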

How the data were processed

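RNA from choroid plexus of 12 specimens, 3 at each of 4 ages, was sequenced as 100 bp paired ends after Trizol extraction and a Kapa mRNA HyperPrep library, per the labels' protocols. The authors deposited gene values in TPM, and the submitters' processing notes name kallisto and GRCm38. Which version and gene models were used, and whether counting used strand, is not given in the sources used here. Since TPM carries no read number, the depth is unknown and no interval for counting error is given. The table has 7 further columns that were not used here.

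From these values, log2(TPM + 1) of the 17422 genes at 1 TPM or more in at least 3 libraries was fitted with limma 3.58.1 in R 4.3.3 as 4 age means with a trended prior and 8 residual degrees of freedom, and the fit was tested on simulated data. Differences are the later age minus the earlier, and fold changes are ratios of mean TPM. Scaling used median-of-ratios factors over 19075 genes. Chain classes, pathway lists and markers were chosen with earlier results of these data known. The chains described were those with a mean of at least 20 TPM at some age, the 3 called chains per class with the largest difference in each comparison and their trimer partners, and all other chains are accounted for more briefly. From each pathway list some of the 3 called genes with the largest difference in a comparison are named. Coordinates are from GENCODE M21 (GRCm38) for all 44 chains, and promoter sequences from RefSeq (GRCm38.p6) for 35. Figures used Python 3.11.15 and matplotlib 3.10.9. Alternatives were pseudocounts of 0.1 and 5, other filters and scalings, the libraries of 2 ages alone, a replicate block and each library left out.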

Additional observations from a re-analysis of the deposited data

How the results depend on the processing

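The alternatives were 21 settings, and 26 chains in 4 comparisons gave 2180 values under them. Of these, 2116 kept their direction and their side of the threshold, 19 kept their direction and lost the call, 32 kept it and gained one, and 13 changed direction. Of the 13, 3 were called as deposited or under the alternative, all at P14 against P0, where Col4a4 (-0.38 as deposited) was at 0.101 with scaling and 0.088 with quantile normalization, and Col8a1 (-0.05) at 0.463 with scaling. The other 10 were not called either way. At P0 against E12.5 Col14a1 (-0.15) was at 0.127 with scaling, at 0.138 when the 10 most abundant genes were left out and at 0.145 after quantile normalization. At P14 against P0 Col8a1 was at 0.155 and 0.224 in those last settings. The rest came from leaving out 1 library at a time, under which Col14a1 ranged over -0.407 to 0.0406 and Col4a6 (0.07) over -0.00289 to 0.146 at P0 against E12.5, and Col4a3 (0.01) over -0.0291 to 0.0528 and Col4a5 (0.02) over -0.0346 to 0.0881 at P14 against P0. Of the counts of chains, the 1 that moved by more than 1.5 times was the count higher at P14 against P0. It was 1 as deposited, 4 with scaling, 3 with quantile normalization and 0 with a mean of at least 5 TPM, a filter that leaves out Col17a1. Beyond that filter the cause of these changes was not tested. With each library left out in turn, the chains lower numbered 15 to 20 at P0 against E12.5, 25 to 28 at P14 against P0, 22 to 24 at A6m against P14 and 28 in every case at A6m against E12.5. With the replicate number as a block, 8 chains rose and 16 fell at P0 against E12.5, 27 fell at P14 against P0 and 22 at A6m against P14, and among the 26 chains the 1 call lost was that of Col4a2 (-0.36, adjusted p = 0.0582). Same-numbered libraries did not deviate together (r across genes of -0.0778 to 0.108 in 18 pairs, with 1 over 0.1), so the numbers were not taken as pairs. TPM gives no depth, so how far chains near 0 were measurable is unknown.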
